A study of Caenorhabditis elegans with 8 samples.

Results

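The lysozyme genes lys-1 to lys-10 of Caenorhabditis elegans were followed in first-stage (L1) larvae of 4 genotypes. Members were the rows of the raw count table whose WormBase symbol is lys-1 to lys-10, and all 10 were found among 20392 genes. Of these, 9 passed the filter on low counts and were tested, and lys-9 did not.

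Lysozymes cleave the peptidoglycan of bacterial cell walls. The lys genes of C. elegans encode secreted enzymes related to those of protists, several of them are made in the intestine, and they serve both in digesting the bacteria the worm eats and in defence against bacterial pathogens. lys-7 is a widely used marker of intestinal immunity and lies downstream of the insulin pathway's transcription factor DAF-16, while lys-8 has been tied to signalling through DBL-1, a TGF-beta ligand.

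The double mutant carried cec-4(ok3124), a mutant allele of the gene of the chromodomain protein CEC-4, an anchor that holds chromatin methylated at histone H3 lysine 9 at the nuclear envelope, together with a lamin transgene. The lamin Y59C strain carried that transgene, ygIs with baf-1p::GFP-lmn-1 Y59C and unc-119(+), in an unc-119(ed-3) background, without the cec-4 allele; this substitution models a human lamin A mutation of Emery-Dreifuss muscular dystrophy. The cec-4 mutant carried cec-4(ok3124) alone, and the wild-type was N2 Bristol. The transgene is driven by the baf-1 promoter, which is active in most tissues, and no strain with a GFP-tagged lamin lacking Y59C was analysed here, so an effect of Y59C cannot be told apart from one of the GFP fusion, the rescue marker or the unc-119 allele. All 4 groups were larvae hatched for 16 h without food, fed OP50 bacteria for 2.5 h and collected by a sort as non-green L1 animals. Each group had 2 libraries, a and b, of total RNA from whole larvae. The labels do not say that these came from separate cultures, so p-values measure the spread between these libraries, which may be technical.

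Library totals ran from 30924676 to 57069281 counts, with counts in 17107 to 17569 genes. Levels of cec-4 and unc-119 matched the labels. cec-4 had 4.35 and 4.61 CPM (counts scaled to a fixed TMM-adjusted library total) in the double mutant. It had 12.3 and 12.3 CPM in lamin Y59C, 5.04 and 4.76 CPM in cec-4 mutant larvae, and 14.5 and 12.7 CPM in the wild-type. unc-119, which the transgene also supplies, had 41.5 to 43.3 CPM in the libraries of both lamin strains and 22.4 to 24.3 CPM in those of the other two groups. lmn-1 had 488 and 523 CPM in the double mutant and 511 and 519 CPM in lamin Y59C. It had 429 and 473 CPM in cec-4 mutant larvae and 442 and 453 CPM in the wild-type, and edgeR called it in no comparison. Marker lists of 16 intestinal, 8 pharyngeal, 7 body wall muscle, 9 neuronal, 8 epidermal and 4 coelomocyte genes had counts in every library. Of 12 adult and germ line markers 7 to 9 had counts, and 6 vitellogenin genes, defining markers of adults, summed to 0.568 to 1.05 CPM. No gene of any marker list passed the edgeR test in any comparison. At an unadjusted p under 0.05 the largest number in a list and direction was 5 lower intestinal genes, in the double mutant against lamin Y59C. There 7.26% of all tested genes were lower. DESeq2 called ifc-2, mtl-2, unc-22, unc-89 and dpy-7 of these lists in 1 or more comparisons.

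Per kilobase of exon, the 10 genes fell into 5 abundant and 5 scarce members. lys-1 averaged 589 CPM per kb over the 8 libraries and made up 45.9% of all lysozyme counts. lys-8 followed with 313, lys-7 with 194, lys-2 with 148 and lys-4 with 60.4 CPM per kb. lys-7 had the widest range over libraries (96.3 to 282.2 CPM per kb), which overlapped those of both its neighbours in the order, lys-8 (281.9 to 337 CPM per kb) and lys-2 (124 to 177 CPM per kb). The ranges of lys-1 and lys-8, and of lys-2 and lys-4, did not overlap. In the double mutant lys-2 lay above lys-7, at 125.8 ± 2.11 and 106 ± 13.9 CPM per kb (SD, n = 2), whereas lys-7 lay above lys-2 in lamin Y59C (277 and 138 CPM per kb), the cec-4 mutant (194 and 157) and the wild-type (201 and 172). The scarce members were lys-3 (4.15 CPM per kb), lys-10 (2.83), lys-6 (1.46), lys-5 (0.685) and lys-9 (0.0227), and each of the neighbours lys-3 and lys-10, lys-10 and lys-6, and lys-6 and lys-5 overlapped in their ranges. Levels per kilobase use exon lengths of the WBcel235 annotation, whereas the submitters' processing notes name build ce10, and reads of 50 bases can fall on more than one related gene in a way the sources used here do not describe.

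**Figure D1:**
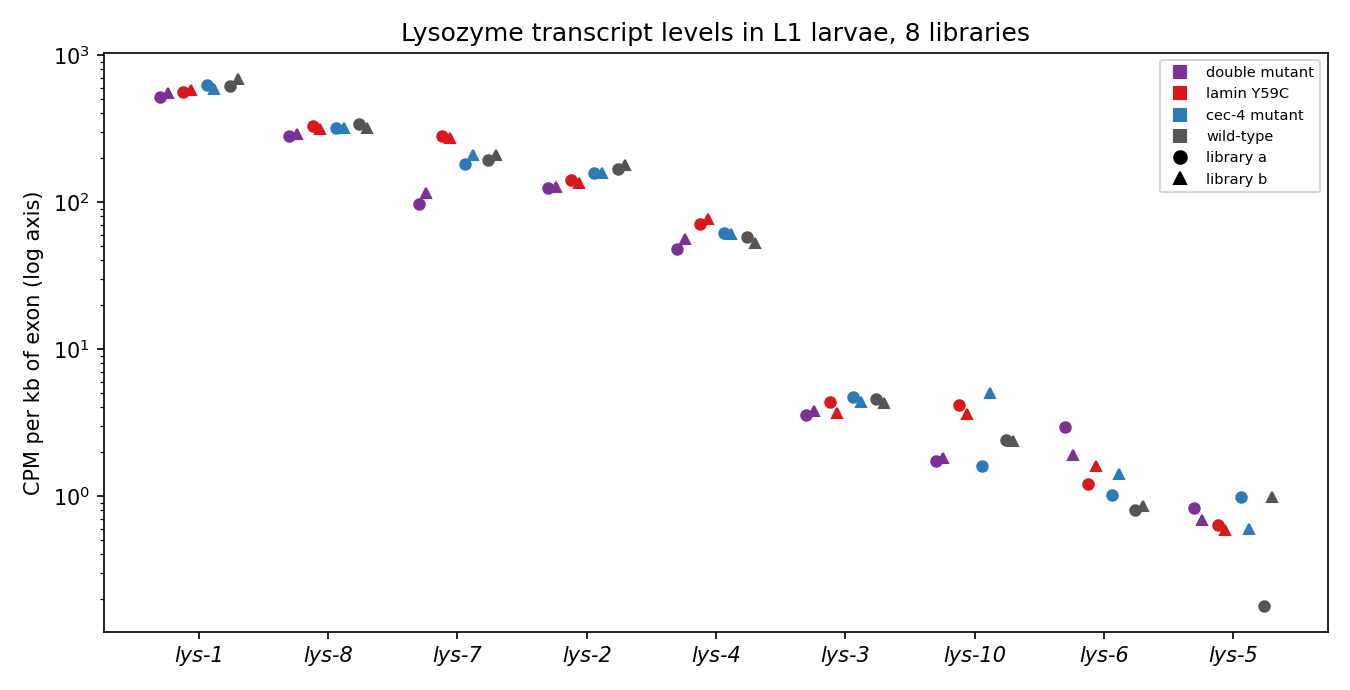
Level of each lysozyme gene in CPM per kilobase of exon (log axis) by gene, with the double mutant, lamin Y59C, cec-4 mutant and wild-type drawn left to right within each gene, circles for library a and triangles for library b. The 5 abundant genes lie above 40 CPM per kb in every library and the scarce ones below 10, and lys-9 is not drawn because it had 4 counts in all.

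On the WBcel235 assembly 6 members lie in runs of neighbours. lys-1 (WBGene00003090, chromosome V, 10277904 to 10279056, plus strand), lys-2 (WBGene00003091, V, 10280307 to 10281474, minus) and lys-3 (WBGene00003092, V, 10282100 to 10283544, minus) are separated by 1250 and 625 bp. lys-4 (WBGene00003093, IV, 11621429 to 11623174), lys-5 (WBGene00003094, IV, 11624252 to 11625582) and lys-6 (WBGene00003095, IV, 11626910 to 11627947) share the minus strand with gaps of 1077 and 1327 bp. The remaining members stand apart: lys-7 (WBGene00003096, V, 3481432 to 3482600, minus), lys-8 (WBGene00003097, II, 5586178 to 5587651, plus), lys-9 (WBGene00003098, chromosome I) and lys-10 (WBGene00003099, IV, 8332826 to 8333518, plus). Exons of lys-8 overlap by 38 bp those of C17G10.13 on the other strand, and whether the authors' counting used strand is not given, so reads there could belong to either gene.

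lys-7 spanned the widest relative range among the abundant members. It was lowest in the double mutant and highest in lamin Y59C, with the cec-4 mutant and the wild-type close to each other in between. In the double mutant it had 86.8 and 104.6 CPM, from 2834 and 3269 counts. The lamin Y59C libraries had 254.6 and 244.3 CPM, from 8078 and 7741 counts. The cec-4 mutant had 162.9 and 187.2 CPM and the wild-type 174.8 and 187.2 CPM. Both double mutant libraries lay below all others, both lamin Y59C libraries lay above all others, and the cec-4 mutant and wild-type overlapped.

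lys-7 fell in the double mutant against all 3 other genotypes. It averaged 95.7 ± 12.56 CPM in the double mutant and 249 ± 7.29 CPM in lamin Y59C (SD, n = 2 each), a log2 fold change of -1.38 ± 0.09 (SE; 95% interval -1.59 to -1.17; quasi-likelihood test of edgeR, Benjamini-Hochberg adjusted p = 0.000201). That was the third smallest p among the 14355 genes tested. Against the cec-4 mutant (175 ± 17.2 CPM) its log2 fold change was -0.87 ± 0.09 (edgeR adjusted p = 0.00558), and against the wild-type (181 ± 8.78 CPM) it was -0.92 ± 0.09 (edgeR adjusted p = 0.00140). These calls held without any one library. Since whole larvae were measured, fewer cells that make a transcript and less of it per cell cannot be told apart.

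In lamin Y59C against the wild-type lys-7 had a log2 fold change of 0.46 ± 0.09, which missed the threshold of 0.05 (edgeR adjusted p = 0.0657) although the libraries of the groups did not overlap. The alternatives ran from an adjusted p of 0.000405 with DESeq2, which called it higher, to 0.446 without 1 library. edgeR also called it higher without the filter (0.0261) and with only these 2 groups (0.0188). In the cec-4 mutant against the wild-type the log2 fold change was -0.048 ± 0.09 (95% interval -0.25 to 0.16; edgeR adjusted p = 0.960). The difference between the lamin effects with and without CEC-4, given by the interaction term, was -1.33 ± 0.13 for lys-7 (95% interval -1.63 to -1.04; edgeR adjusted p = 0.00983), the second smallest p of all tested genes. Without wild-type library a the interaction's adjusted p was 0.0692, and without lamin Y59C library a it was 0.0699.

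The summed CPM of the 16 intestinal markers was 10814 and 11236 in the double mutant, 11456 and 10965 in lamin Y59C, 11901 and 10878 in the cec-4 mutant, and 11340 and 11375 in the wild-type, so the double mutant overlapped lamin Y59C and the cec-4 mutant. Most of that sum came from asp-1 (5471 and 5807 CPM in the double mutant) and act-5 (2051 and 2227 CPM). In the double mutant ges-1, ifb-2, ifc-2 and ifp-1 lay below every library of the other groups, and elt-7, pbo-4 and mtl-2 above. In the double mutant against lamin Y59C the median log2 fold change of the 16 markers was -0.087, against 0.0028 over all tested genes. At an unadjusted p under 0.05, 5 were lower and 1 higher there, against 7.26% and 5.96% of all genes. ges-1, an intestinal esterase, had a log2 fold change of -0.27 ± 0.07 there (edgeR adjusted p = 0.136). mtl-2, an intestinal metallothionein, had 0.55 ± 0.11 there (edgeR adjusted p = 0.0538; called higher by DESeq2). The 8 epidermal markers summed to 231 and 220 CPM in the double mutant, 255 and 251 CPM in lamin Y59C, 239 and 259 CPM in cec-4 mutant larvae, and 238 and 254 CPM in the wild-type. The double mutant lay below the other groups in this sum. At an unadjusted p under 0.05, 4 of the 8 genes were lower against the wild-type, where 9.14% of all tested genes were. The part of intestinal or epidermal content in the lysozyme values was not tested.

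**Figure D2:**
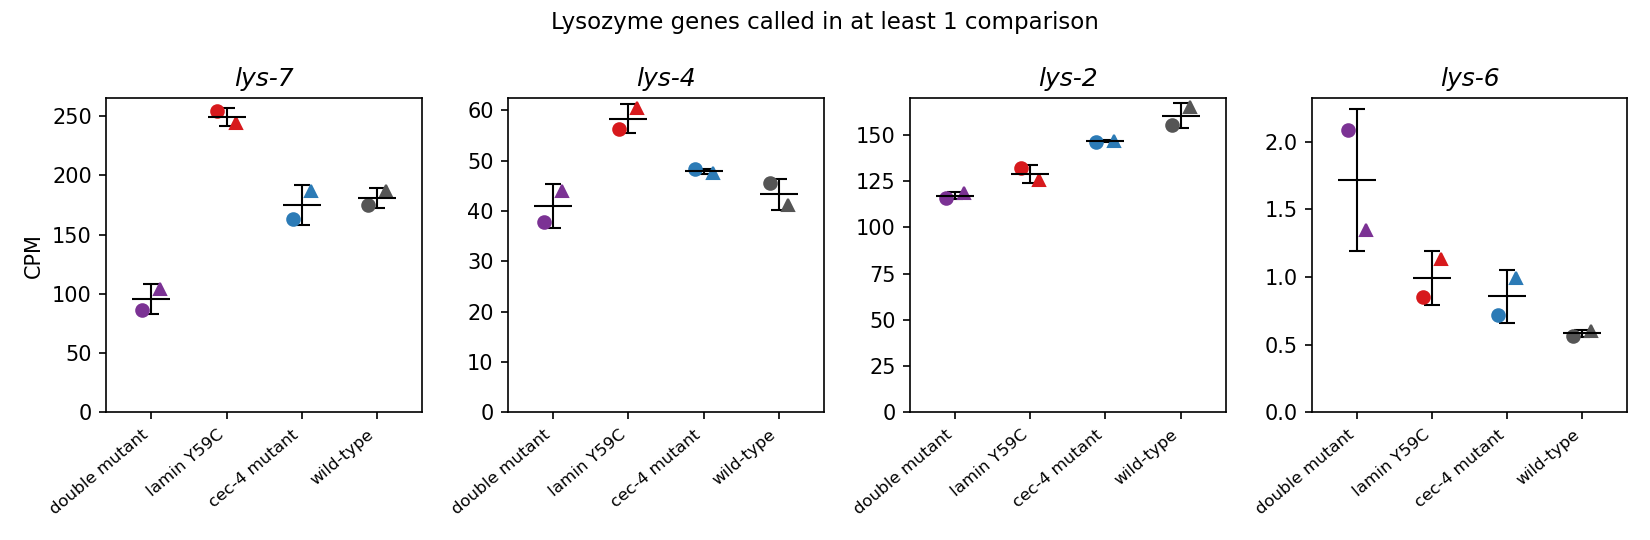
CPM of lys-7, lys-4, lys-2 and lys-6, the members called in at least 1 comparison by edgeR with TMM scaling and all 4 groups, by genotype with the double mutant at the left and the wild-type at the right; circles are library a, triangles library b, and bars the mean ± SD of 2 libraries. lys-7 lies at 86.8 and 104.6 CPM in the double mutant against 254.6 and 244.3 CPM in lamin Y59C.

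lys-4, the most abundant gene of the chromosome IV run, also fell in the double mutant against lamin Y59C. It had 37.8 and 44.0 CPM in the double mutant, 56.2 and 60.3 CPM in lamin Y59C, 48.3 and 47.6 CPM in cec-4 mutant larvae, and 45.5 and 41.2 CPM in the wild-type. Both lamin Y59C libraries were above all others, and the double mutant overlapped the wild-type. The log2 fold change in the double mutant against lamin Y59C was -0.51 ± 0.08 (edgeR adjusted p = 0.0255), and leaving out either library of either group ended that call, with an adjusted p of up to 0.168. In lamin Y59C against the wild-type lys-4 had 0.43 ± 0.08 (edgeR adjusted p = 0.0538; called higher by DESeq2, 0.00325, and by edgeR with library totals, 0.0398, without the filter, 0.0221, and with only these 2 groups, 0.0405), and its interaction term was -0.66 ± 0.11 (edgeR adjusted p = 0.116; DESeq2 0.00332).

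lys-2, the neighbour of lys-1, fell with the lamin transgene whether or not CEC-4 was present. It had 115.7 and 118.5 CPM in the double mutant, 132 and 125 CPM in lamin Y59C, 145.9 and 146.7 CPM in cec-4 mutant larvae, and 155 and 165 CPM in the wild-type. The 4 groups did not overlap. Its log2 fold change was -0.45 ± 0.06 in the double mutant against the wild-type (edgeR adjusted p = 0.00497), -0.32 ± 0.06 in the double mutant against the cec-4 mutant (edgeR adjusted p = 0.0338) and -0.32 ± 0.06 in lamin Y59C against the wild-type (edgeR adjusted p = 0.0453). The interaction term was -0.0048 ± 0.08. The first call was lost without double mutant library a (adjusted p = 0.0644); the second was lost when any 1 library of either group was left out, and the third when any 1 library of lamin Y59C, the wild-type or the double mutant was. The third was also lost with library totals (0.0898), and with only the compared groups in the fit both the second (0.0603) and the third (0.0560) were lost.

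lys-1 had the same order of group means as lys-2 but did not pass the edgeR test in any comparison with TMM scaling and all 4 groups. It had 500 and 529 CPM in the double mutant, 536 and 555 CPM in lamin Y59C, 596 and 563 CPM in cec-4 mutant larvae, and 588 and 655 CPM in the wild-type. The double mutant lay below the other genotypes, while the cec-4 mutant and wild-type overlapped. Its log2 fold change in the double mutant against the wild-type was -0.27 ± 0.07 (edgeR adjusted p = 0.0803; DESeq2, which called it lower, 0.0111; edgeR with plain library totals, which called it lower too, 0.0317). The ratio of lys-1 to lys-2 counts stayed within 3.79 to 4.46 over the libraries. lys-3, the third gene of this run, had 3.95 and 4.22 CPM in the double mutant, 4.88 and 4.13 CPM in lamin Y59C, 5.26 and 4.89 CPM in cec-4 mutant larvae, and 5.08 and 4.81 CPM in the wild-type; none of its comparisons passed.

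lys-6, a scarce member, was called higher in the double mutant. Its counts were 68 and 42 in the double mutant, 27 and 36 in lamin Y59C, 22 and 38 in the cec-4 mutant, and 18 and 34 in the wild-type. On the CPM scale that gave 2.08 and 1.34 in the double mutant, 0.851 and 1.14 in lamin Y59C, 0.719 and 0.994 in the cec-4 mutant, and 0.565 and 0.603 in the wild-type. The double mutant libraries were above all others on the CPM scale. lys-6 rose in the double mutant against the wild-type by a log2 fold change of 1.54 ± 0.29 (edgeR adjusted p = 0.0283); the call was lost without wild-type library a (0.178), wild-type library b (0.105) or double mutant library a (0.205). Its neighbour lys-5 had 19 and 15 counts in the double mutant, 14 and 13 in lamin Y59C, 21 and 16 in the cec-4 mutant, and 4 and 39 in the wild-type. The wild-type libraries held both the lowest and the highest of these counts, and no comparison of lys-5 passed.

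lys-8, the second most abundant member, varied little. It had 273 and 283 CPM in the double mutant, 321 and 303 CPM in lamin Y59C, 308 and 307 CPM in cec-4 mutant larvae, and 327 and 308 CPM in the wild-type. The double mutant lay below the other groups, which overlapped each other, and its log2 fold changes were -0.19 ± 0.06 against the wild-type (edgeR adjusted p = 0.135), -0.16 ± 0.06 against lamin Y59C (0.270) and -0.14 ± 0.06 against the cec-4 mutant (0.336).

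lys-10 had 39 and 39 counts in the double mutant, 91 and 79 in lamin Y59C, 34 and 132 in the cec-4 mutant, and 53 and 93 in the wild-type. The cec-4 mutant libraries held both the lowest and the highest of these counts, and the log2 fold change in the double mutant against lamin Y59C, -1.13 ± 0.41, did not pass (edgeR adjusted p = 0.275), but was called with only these 2 groups in the fit (0.0401). lys-9 had 0 counts in 6 libraries, 3 in double mutant library b and 1 in cec-4 mutant library b. A count of 0 allows up to 3 counts, or 0.0532 to 0.0981 CPM depending on the library, and such limits cover counting error only; at this depth lys-9 could not be compared.

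Counted over the 9 tested members, the double mutant held most calls. Against the wild-type edgeR called lys-6 higher and lys-2 and lys-7 lower, where 0.773% of all tested genes were called higher and 1.44% lower. Before adjustment, at a p under 0.05, 1 member was higher and 4 lower, against 8.3% and 9.14% of all genes, and the median log2 fold change was -0.27 over members and 0.0050 over all genes. Against lamin Y59C lys-4 and lys-7 were called lower and none higher by either edgeR or DESeq2, where 0.502% of all genes were called lower and 0.174% higher by edgeR. At an unadjusted p under 0.05, 5 members were lower and 1 higher, against 7.26% and 5.96% of all genes, with medians of -0.14 over members and 0.0028 over all genes. Against the cec-4 mutant lys-2 and lys-7 were called lower and none higher by either tool, where 0.509% of all genes were called lower and 0.265% higher by edgeR. At an unadjusted p under 0.05, 7 members were lower and 1 higher, against 7.18% and 5.98% of all genes, with medians of -0.23 over members and -0.0021 over all genes. These 3 comparisons share the double mutant's libraries, so their calls are not independent of each other.

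The single mutants had fewer calls. In lamin Y59C against the wild-type edgeR called lys-2 lower and none higher, where 0.279% of all genes were called lower and 0.23% higher. At an unadjusted p under 0.05, 2 members were lower and 3 higher, against 7.59% and 6.99% of all genes, and DESeq2 called lys-2 lower and lys-4 and lys-7 higher. In the cec-4 mutant against the wild-type edgeR and DESeq2 both called 0 members, where 0.0139% of all genes were higher by edgeR, and 0.00697% were lower. Before adjustment, at a p under 0.05, 1 member, lys-2, was lower and 0 higher, against 2.33% and 2.55% of all genes. The interaction was called for lys-7 alone by edgeR and for lys-4 and lys-7 by DESeq2, all negative, where edgeR called 0.0348% of all genes negative and 0% positive. At an unadjusted p under 0.05, 3 members were negative and 0 positive, against 5.52% and 4.54% of all genes.

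**Figure D3:**
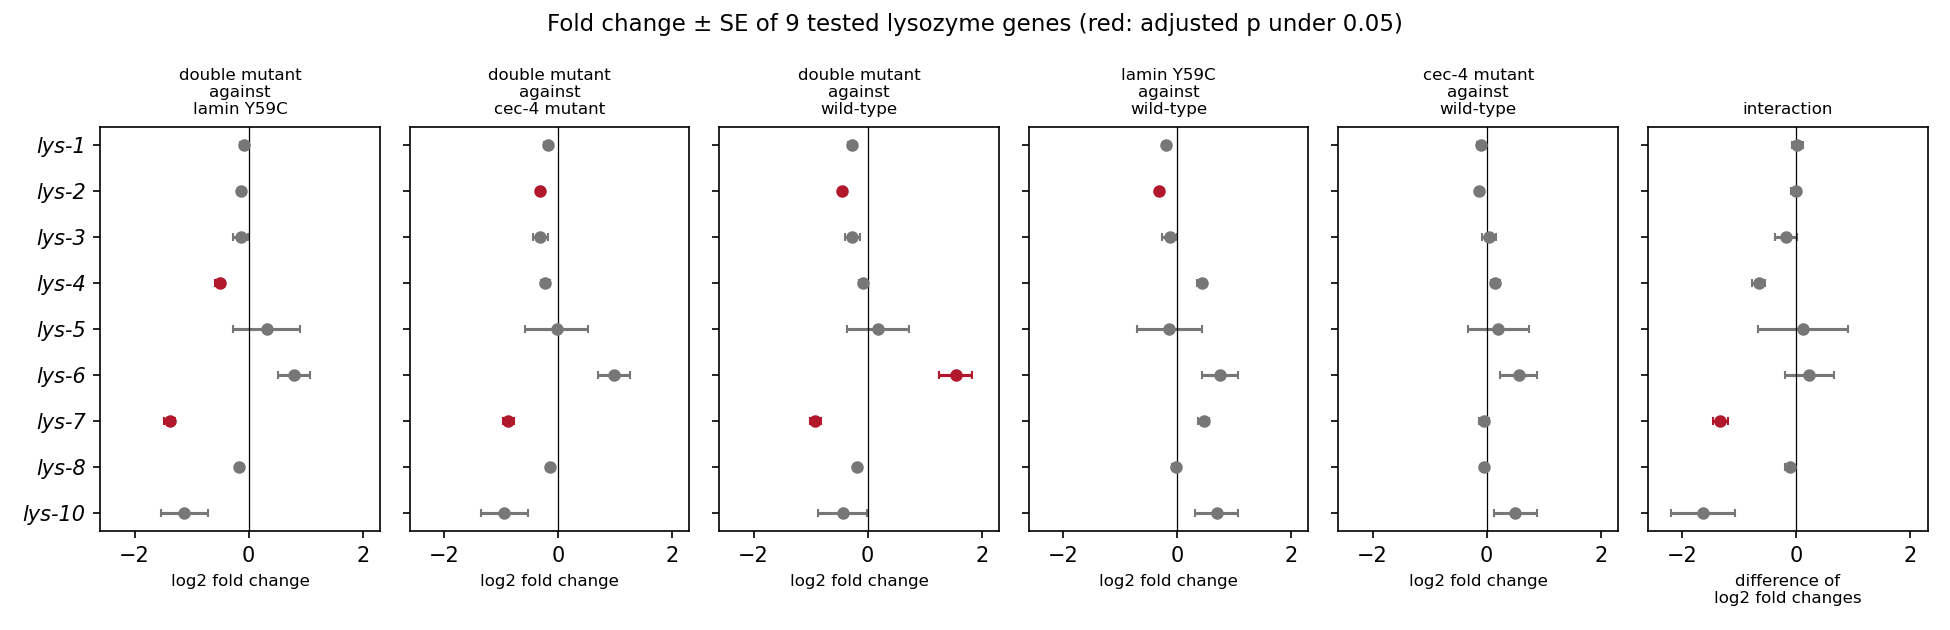
Log2 fold change ± SE of the 9 tested lysozyme genes in each comparison, with called genes in red. lys-7 is at -1.38 in the double mutant against lamin Y59C, and its interaction term is -1.33.

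The summed level of all 10 genes was lowest in the double mutant. It was 1022 and 1087 CPM in the double mutant, 1309 and 1296 CPM in lamin Y59C, 1268 and 1261 CPM in cec-4 mutant larvae, and 1298 and 1364 CPM in the wild-type. The double mutant did not overlap the others, whose sums lay close together. Without lys-7 the sums averaged 959 ± 33.1 CPM in the double mutant, 1053 ± 1.98 CPM in lamin Y59C, 1090 ± 22.2 CPM in cec-4 mutant larvae and 1150 ± 37.7 CPM in the wild-type (SD, n = 2 each). lys-7 made up 8.497% and 9.63% of the family in the double mutant, 19.4% and 18.8% in lamin Y59C, 12.8% and 14.8% in the cec-4 mutant, and 13.5% and 13.7% in the wild-type.

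**Figure D4:**
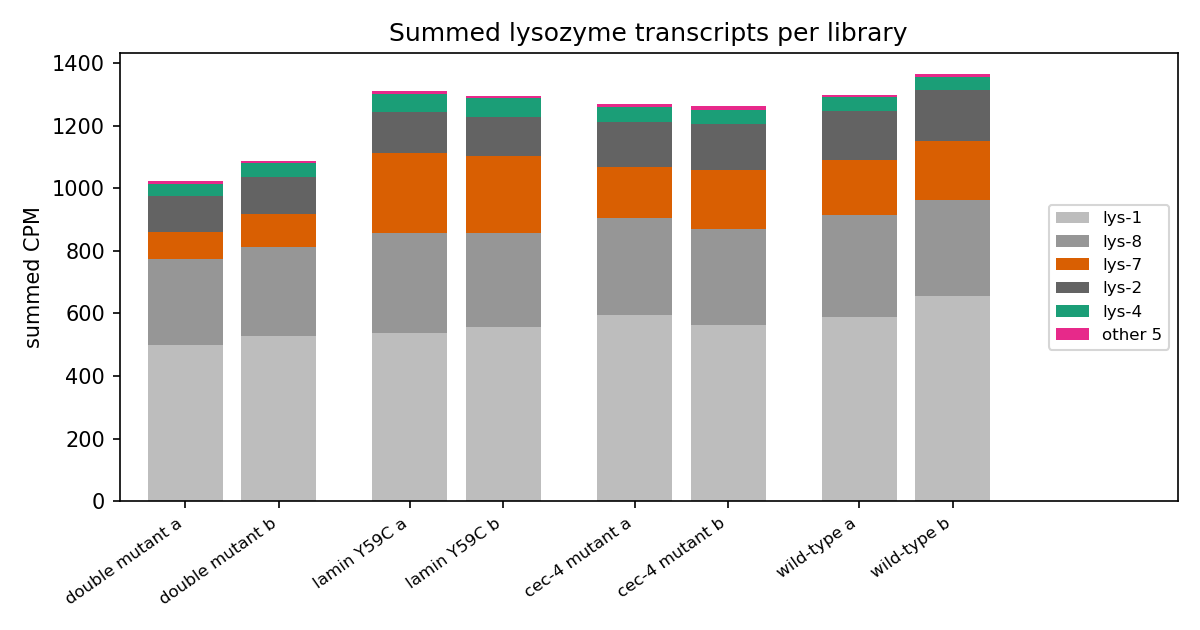
Summed CPM of the lysozyme genes in each library as stacked bars from 0, with lys-1, lys-8, lys-7, lys-2, lys-4 and the other 5 as layers, double mutant at the left and wild-type at the right. The double mutant bars reach 1022 and 1087 CPM and the wild-type bars 1298 and 1364 CPM.

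The genes whose pattern was most like that of lys-7, by Pearson's r of log2 CPM over the 8 libraries among 9691 genes of at least 5 CPM, were clec-7 (0.992), skpo-3 (0.992), pygo-1 (0.979), clec-178 (0.977) and C04E6.13 (0.976). These coefficients are descriptions over libraries that share their groups. clec-7 and clec-178 encode C-type lectin domain proteins, skpo-3 a peroxidase-like protein, and pygo-1 a relative of the Wnt pathway cofactor Pygopus. clec-7 had 11.5 and 12.5 CPM in the double mutant, 17.2 and 17.2 CPM in lamin Y59C, 14.5 and 15.0 CPM in cec-4 mutant larvae, and 14.6 and 15.8 CPM in the wild-type. Since these genes were chosen for their likeness over the same libraries, their differences are given without a test: in the double mutant against lamin Y59C the log2 fold change was -0.52 for clec-7 and -0.38 for skpo-3, beside -1.38 for lys-7. Among members r with lys-7 was 0.817 for lys-8, 0.806 for lys-4, 0.731 for lys-10 and 0.490 for lys-3. It was 0.472 for lys-2, 0.449 for lys-1, -0.200 for lys-5 and -0.627 for lys-6. lys-8 ranked 250 and lys-4 289 among the 9691 genes. lys-1 with lys-2 had 0.916.

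**Figure D5:**
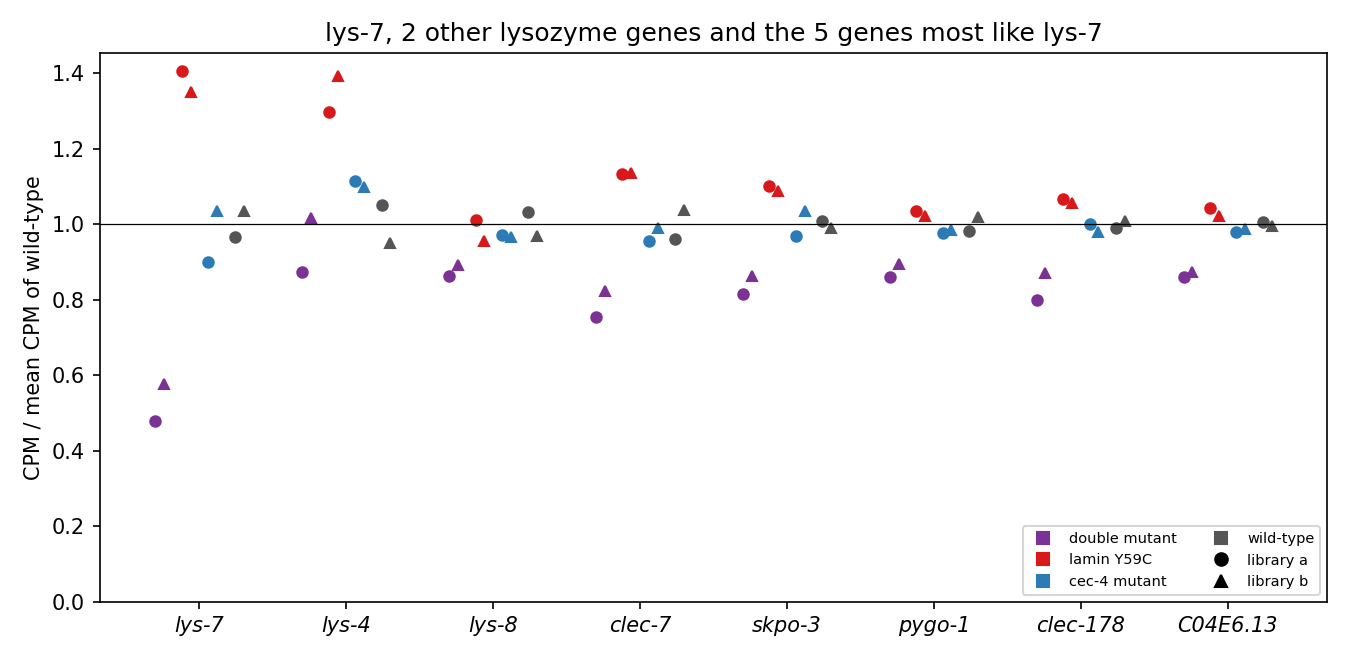
CPM divided by the gene's mean wild-type CPM for lys-7, lys-4, lys-8 and the 5 genes most like lys-7, by library from the double mutant at the left to the wild-type at the right. clec-7 follows the order of lys-7 with a smaller range, 11.5 to 17.2 CPM.

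The pathways through which lysozyme genes are known to be set were also examined at the level of their own transcripts. Of 11 tested genes of the p38 MAPK immune pathway, 13 of the insulin to DAF-16 pathway and 11 transcription factors of intestinal immunity, edgeR called 0 in each comparison; at an unadjusted p under 0.05 at most 5 genes of a list differed in one direction, the 5 of 13 lower insulin pathway genes in lamin Y59C against the wild-type, where 7.59% of all tested genes were lower. DESeq2 called daf-16 higher and akt-1 lower in lamin Y59C against the wild-type, and zip-2 lower in the double mutant against the wild-type. daf-16 averaged 230 CPM in the double mutant, 240 CPM in lamin Y59C larvae and 196 CPM in wild-type larvae. edgeR called 2 of 12 DBL-1 pathway genes lower in the double mutant against the wild-type, beside 1.44% of all genes. It called 1 lower in lamin Y59C against the wild-type and 1 in the double mutant against the cec-4 mutant, beside 0.279% and 0.509%. At an unadjusted p under 0.05, 5, 5 and 4 were lower in this order, against 9.14%, 7.59% and 7.18%. Higher there were 1, 1 and 0, against 8.3%, 6.99% and 5.98%. DESeq2 added sma-9 in the first, and daf-4 and sma-10 in the second. Of 12 tested DBL-1 pathway genes, lon-1, a gene repressed by DBL-1 signalling that limits body length, fell in the double mutant against the wild-type (-0.68 ± 0.08, edgeR adjusted p = 0.00497), and so did the receptor gene daf-4 (-0.35 ± 0.06, edgeR adjusted p = 0.0172; lost without double mutant library a or b or wild-type library a, up to 0.144). lon-1 fell too in lamin Y59C against the wild-type (-0.54, edgeR adjusted p = 0.0335) and in the double mutant against the cec-4 mutant (-0.58, 0.0149), of which the first was lost when any 1 of the 4 libraries compared was left out and the second without double mutant library a or cec-4 mutant library b.

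Of 25 tested immune effector genes known to be induced by bacteria, 4 fell in the double mutant against the wild-type and none rose, with a median log2 fold change of -0.29 against 0.0050 over all genes; 1.44% of all tested genes were called lower and 0.773% higher. Before adjustment, at a p under 0.05, 13 of the 25 were lower and 1 higher, against 9.14% and 8.3% of all genes. DESeq2 called 8 lower. The 4 were spp-18, clec-67, cpr-1 and dod-24, and each of these calls was lost when either double mutant library was left out. They were also lost without wild-type library a (spp-18 and clec-67), library b (dod-24) or either (cpr-1). Against lamin Y59C 2 of the 25 fell and none rose, where edgeR called 0.502% of all tested genes lower and 0.174% higher. Before adjustment, at a p under 0.05, 11 were lower and 2 higher, against 7.26% and 5.96% of all genes. DESeq2 called 3 lower and none higher. spp-18, a saposin-like protein gene, averaged 80.6 CPM in the double mutant and 142.7 CPM in lamin Y59C (log2 fold change -0.82 ± 0.09, edgeR adjusted p = 0.00639), and cpr-1, a cathepsin B-like protease gene, averaged 682 CPM in the double mutant and 1092 CPM in lamin Y59C (-0.68 ± 0.09, edgeR adjusted p = 0.0122). Both calls were lost when either double mutant library was left out, and that of cpr-1 also without lamin Y59C library a. Against the cec-4 mutant spp-18 and cpr-1 fell and irg-5 rose, where edgeR called 0.509% of all tested genes lower and 0.265% higher. Before adjustment, at a p under 0.05, 13 were lower and 7 higher, against 7.18% and 5.98% of all genes. Leaving out either double mutant library ended the spp-18, cpr-1 and irg-5 calls too. All were also lost without cec-4 mutant library b, and that of irg-5 without cec-4 mutant library a. Those of cpr-1 and irg-5 were lost without either wild-type library as well. In both single mutants against the wild-type edgeR called 0 of the 25. Before adjustment, at a p under 0.05, 2 were higher and 6 lower in lamin Y59C, against 6.99% and 7.59% of all genes. In the cec-4 mutant 0 were higher and 2 lower, against 2.55% and 2.33%. DESeq2 called asp-14 lower in lamin Y59C.

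Of 12 tested genes known as induced by DAF-16, the desaturase gene fat-7 rose in the double mutant against the wild-type (0.92 ± 0.08, edgeR adjusted p = 0.000594; called without any one library). fat-7 also rose in lamin Y59C against the wild-type (0.57 ± 0.08, edgeR adjusted p = 0.0184; lost without lamin Y59C library b or either wild-type library, up to 0.144). The metallothionein gene mtl-1 fell in the double mutant against the wild-type (-0.82 ± 0.10, edgeR adjusted p = 0.00497; lost when either double mutant library was left out, up to 0.0592). In the double mutant against the cec-4 mutant fat-7 rose and mtl-1 fell, and both calls were lost when either double mutant library was left out. Both were also lost without cec-4 mutant library b, and that of mtl-1 without cec-4 mutant library a. In the double mutant edgeR called 1 of the 12 higher and 1 lower against the wild-type, beside 0.773% and 1.44% of all genes. Against the cec-4 mutant it called 1 higher and 1 lower, beside 0.265% and 0.509%. At an unadjusted p under 0.05, 1 was higher and 2 lower in the first (8.3% and 9.14% of all genes). In the second 3 were higher and 2 lower (5.98% and 7.18%). In lamin Y59C against the wild-type 1 was called higher, beside 0.23%. Unadjusted, 2 were higher and 4 lower there, beside 6.99% and 7.59%. Against lamin Y59C edgeR called 0 of the 12 in the double mutant, with a median log2 fold change of -0.011 against 0.0028 over all genes. At an unadjusted p under 0.05, 3 were higher and 3 lower there, against 5.96% and 7.26% of all genes. DESeq2 called fat-7 and mtl-2 higher there. Against the wild-type DESeq2 also called mtl-1 lower in lamin Y59C and fat-7 higher in the cec-4 mutant.

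Lysozymes of the invertebrate type, a separate family, were called by DESeq2 only: edgeR called 0 of the 2 tested genes of 6 in the table. At an unadjusted p under 0.05, 1 was higher and 1 lower in lamin Y59C against the wild-type, beside 6.99% and 7.59% of all genes. These numbers were also 1 and 1 in the cec-4 mutant against the wild-type, beside 2.55% and 2.33%. In the double mutant against lamin Y59C 1 was lower, beside 7.26%. ilys-5 averaged 199 CPM in the double mutant, 254 CPM in lamin Y59C, 231 CPM in cec-4 mutant larvae and 175 CPM in the wild-type. Its log2 fold change was 0.54 ± 0.10 in lamin Y59C against the wild-type (edgeR adjusted p = 0.0571) and -0.35 ± 0.10 in the double mutant against lamin Y59C (edgeR adjusted p = 0.184), and its interaction term was -0.75 ± 0.14 (edgeR adjusted p = 0.147). DESeq2 called ilys-5 in all 3, with these signs. In the cec-4 mutant against the wild-type ilys-5 had 0.40 ± 0.10 (edgeR adjusted p = 0.897), and DESeq2 did not call it.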

How the data were processed

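Total RNA of C. elegans L1 larvae was sequenced as stranded 50-base single-end reads, per the labels' protocols. The authors deposited raw counts per gene for the 8 libraries of 4 groups. Per the submitters' processing notes reads were mapped with Bowtie to ce10 and edgeR 3.24.0 was used; the sources used here name no counting tool or multi-mapping rule. The authors' normalized table was not used.

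From the deposited counts, 14355 genes that passed filterByExpr were fitted with edgeR 4.0.16 in R 4.3.3 (TMM scaling, quasi-likelihood F-test, 1 mean per group, all 8 libraries, 4 residual degrees of freedom). P-values were adjusted over all tested genes by the Benjamini-Hochberg method and called below 0.05. SE is the log2 fold change over the square root of F, and may be too small at low counts. Replicates differed beyond sampling noise (chi-square per degree of freedom 6.70 to 12.58). DESeq2 1.42.0, no filter, library totals, only the 2 compared groups, a replicate block and leaving out each library were alternatives. Scripts were tested on simulated data. Members, lists and tests were chosen with earlier results of these data known. Named genes were all members, genotype genes, the 5 genes most like lys-7 and up to 4 called genes of each list; others were chosen after their values were seen.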

Additional observations from a re-analysis of the deposited data

Results flagged for a closer look

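The lys-7 effect of the lamin strain differed with and without CEC-4. The double mutant minus the cec-4 mutant was -0.87 on the log2 scale, and lamin Y59C minus the wild-type was 0.46. The interaction term was -1.33 (edgeR adjusted p = 0.00983). Every double mutant library lay below both cec-4 mutant libraries, and every lamin Y59C library lay above both wild-type libraries.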

How the results depend on the processing

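lys-7 was called lower in the double mutant against lamin Y59C, the wild-type and the cec-4 mutant under every alternative run for them (14, 15 and 15). In lamin Y59C against the wild-type its log2 fold change was 0.46 with TMM scaling and 0.50 with library totals. Apart from the fits without 1 library, it was called with DESeq2, without the filter and with only these 2 groups. Leaving out 1 library gave log2 fold changes of 0.42 to 0.51. Its interaction term was -1.48 to -1.21 without 1 library, and its change in the cec-4 mutant against the wild-type -0.16 to 0.048, which turned sign without wild-type library b or cec-4 mutant library a. The number of members called in lamin Y59C against the wild-type was 1, but 3 with DESeq2, 3 without the filter, 2 with only the 2 groups and 0 to 3 without 1 library. In the double mutant it was 3 against the wild-type (1 to 3 without 1 library, 4 with library totals, which added lys-1, and 3 with DESeq2, with lys-1 and without lys-6, which had no adjusted p there), 2 against lamin Y59C (1 to 3, and 3 with only the 2 groups, which added lys-10) and 2 against the cec-4 mutant (1 to 2, and 1 with only the 2 groups). The interaction called 1 member, 2 with DESeq2, 2 without the filter and 0 to 2 without 1 library; it cannot be fitted on 2 groups. Calls over all genes shifted too. In lamin Y59C against the wild-type edgeR called 73 genes with TMM scaling and all 4 groups. It called 159 without the filter and 124 with only the 2 groups, and DESeq2 called 234. In the double mutant against the wild-type these were 317 with TMM scaling, 306 with library totals and 436 with DESeq2. With only the 2 groups, calls went from 97 to 156 against lamin Y59C and from 111 to 138 against the cec-4 mutant. The cause of these shifts was not tested.

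Deviations of same-letter libraries correlated between -0.221 and 0.195 over pairs of groups, with both signs. Whether the letters mark samples handled together cannot be decided from these correlations, and the labels do not say. With a replicate block the members called were 0 in lamin Y59C against the wild-type. In the double mutant they were 2 against the wild-type, 1 against lamin Y59C and 1 against the cec-4 mutant. In that order, edgeR called 27, 146, 28 and 58 of all genes, beside 73, 317, 97 and 111 without the block. The lys-2 calls in lamin Y59C against the wild-type (edgeR adjusted p = 0.100) and in the double mutant against the cec-4 mutant (0.0794) were lost. Also lost were the lys-6 call in the double mutant against the wild-type and the lys-4 call in the double mutant against lamin Y59C. A crossed replicate block, chosen after seeing the correlations above, called 3 members in the double mutant against the wild-type and 1 against the cec-4 mutant. It called 260 and 91 of all genes there. Counts limit lys-5, lys-6, lys-9 and lys-10, whose libraries held 132 counts or fewer.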

Other observations

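Nearest tested protein-coding genes beside lys-7 and beside the lys-1 to lys-3 and lys-4 to lys-6 runs did not pass the edgeR test in any comparison. They were chosen after the lysozyme values were seen, and genes beside lys-8, lys-9 and lys-10 were not examined. Of all tested genes, edgeR called at most 1.44% in one direction of a comparison. Beside lys-7 the closest was gst-33, a glutathione transferase gene 12869 bp away, with a log2 fold change of -0.42 in the double mutant against lamin Y59C. slc-28.1, 15239 bp away, had -0.33 there, and slc-28.2, 18216 bp away, had 0.14. On the other side of lys-7, C07G3.8, 15502 bp away, had -0.17 in that comparison, C07G3.10 had 0.20 and ugt-64 had 0.13. Against the wild-type the double mutant had -0.74 for gst-33 (edgeR adjusted p = 0.0965), -0.55 for slc-28.1 (0.133) and -0.14 for slc-28.2. For C07G3.8, C07G3.10 and ugt-64 these were -0.21, 0.053 and 0.29. Against the cec-4 mutant gst-33 had -0.26, slc-28.1 -0.61 (edgeR adjusted p = 0.158) and ugt-64 0.13. Beside the lys-4 to lys-6 run, dsl-5 lay 419 bp and F58B3.4 801 bp away.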
